A study of Mus musculus with 6 samples.

Results

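The alpha and beta tubulin isotypes are the subunits from which microtubules are built. They were taken from the deposited count matrix by a list of 10 mouse gene symbols, 4 alpha and 6 beta genes, matched to the Ensembl identifiers of the table. All 10 were found among its 56691 identifiers, and all 10 passed the filter on low counts, which left 16414 genes to test. The comparison set 3 RNA sequencing libraries of circulating tumour micro-emboli (CTM) against 3 libraries of 4T1 cells, a mouse mammary carcinoma line. CTM are clusters of tumour cells that travel in the blood, and here they were recovered with a microfluidic capture chip from mice whose breast cancer had reached the lung. The 4T1 libraries came from cells grown in DMEM with fetal bovine serum and penicillin-streptomycin, and their titles name a low adherence culture. The labels give no strain, age, sex or number of mice, and they do not say how many animals or cultures a library pooled or whether replicates were separate. The p-values therefore cover only the spread among these libraries, some of which may be technical, and growth in mice, passage through blood and capture cannot be told apart.

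An alpha and a beta tubulin form the heterodimer that adds to the ends of a microtubule. The isotypes are encoded by separate genes and differ most in their acidic C-terminal tails, where motors and modifying enzymes bind. Tubb5, Tubb4b, Tuba1b and Tuba1c are widely expressed in dividing cells, Tuba1a, Tubb2a, Tubb2b and Tubb3 are best known from neurons, and Tubb6 occurs in many non-neuronal tissues. Tuba4a encodes an alpha tubulin made without the terminal tyrosine that most alpha tubulins carry. Cells hold tubulin RNA in check by autoregulation: in work on human and other mammalian cells, TTC5 recognised the first residues of tubulin as they left the ribosome and, with SCAPER and the CNOT11 subunit of a deadenylase, triggered decay of the message.

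The first 30 coding bases of 9 members are shown because autoregulation reads the start of the protein and because they show how alike the genes are. They come from GENCODE M21 transcripts, 5′ to 3′. Capitals mark bases that differ from Tuba1b in the alpha genes and from Tubb5 in the beta genes.
Tuba1b: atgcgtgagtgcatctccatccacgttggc
Tuba1c: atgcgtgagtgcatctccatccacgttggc
Tuba1a: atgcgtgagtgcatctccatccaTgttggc
Tuba4a: atgcgCgagtgcatTtcAGtccaTgtGggG
Tubb5: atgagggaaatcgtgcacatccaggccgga
Tubb3: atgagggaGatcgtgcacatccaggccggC
Tubb2a: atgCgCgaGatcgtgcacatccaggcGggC
Tubb4b: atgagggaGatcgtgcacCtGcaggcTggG
Tubb2b: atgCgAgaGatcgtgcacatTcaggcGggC
Tuba1c had the same 30 bases as Tuba1b, Tuba1a differed at 1 base and Tuba4a at 7, while the beta genes shown differed from Tubb5 at 2 to 6. Over the whole coding sequence Tuba1a and Tuba1b were 98.3% identical, Tuba1b and Tuba1c 97.9% and Tubb2a and Tubb2b 96.5%. Tubb5 was 80.2% to 84.5% identical to the other beta members.

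Most of the listed tubulin genes were lower in CTM. Of the 10 members 7 fell, where 13.7% of all genes tested passed in that direction by edgeR's quasi-likelihood test (Benjamini-Hochberg adjusted p under 0.05). Of these, 4 were at least 2-fold lower, as were 5.07% of all genes tested. The genes that fell were Tuba1a, Tuba1b, Tuba1c, Tubb2a, Tubb2b, Tubb4b and Tubb6, by 1.77-fold to 2.54-fold. The count of members that rose was 0 by edgeR, by DESeq2 and by limma voom at an adjusted p under 0.05. Of all genes tested 14.2%, 17.9% and 26.8% were higher by these tests. The count was also 0 at an unadjusted p below 0.05 by edgeR, for which no share over all genes is given here. Tubb5, the most abundant member, did not pass in either direction, nor did Tuba4a and Tubb3. The median log2 fold change of the 10 members was -0.96, against -0.02 over all genes tested. In 8 members every CTM value lay below every 4T1 value, a pattern shown by 23.5% of all genes tested. In bulk RNA fewer cells of a type and less RNA per cell cannot be told apart.

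**Figure D1:**
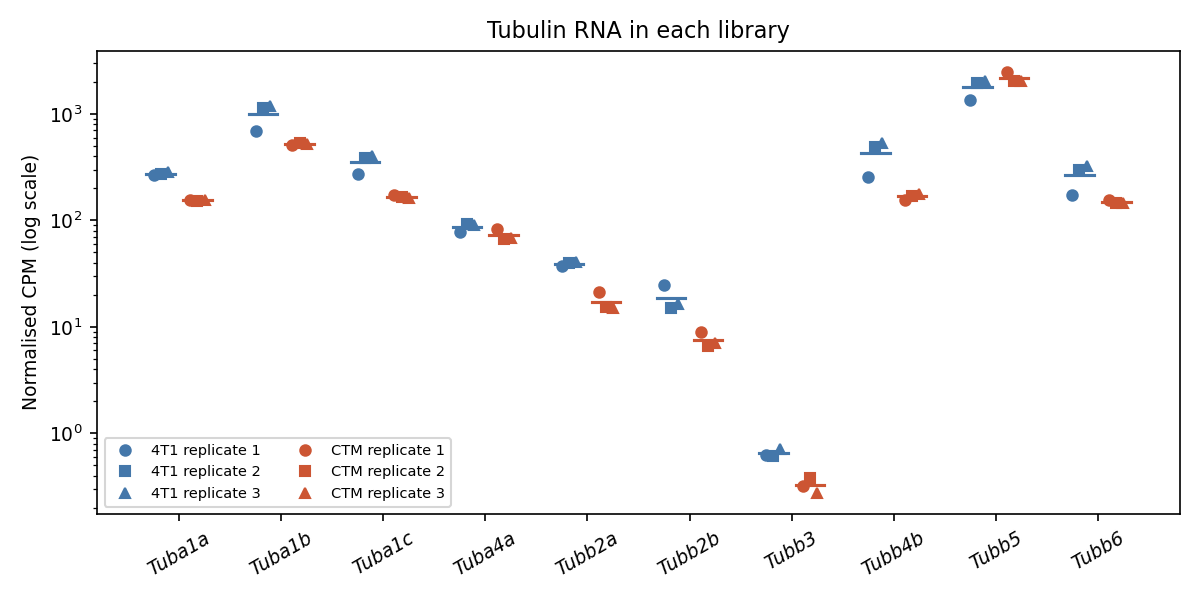
Normalised CPM (log axis) of the 10 tubulin genes in each library, with a horizontal line at the group mean and a marker shape for each replicate number. The CTM points lie below the 4T1 points in 8 genes and overlap them in Tuba4a and Tubb5.

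Among the alpha genes, Tuba1b, a ubiquitous isotype, had 688, 1144 and 1192 normalised CPM (counts scaled to a common effective library size) in 4T1 replicates 1, 2 and 3, against 509.8, 533 and 522 in the CTM libraries. All 3 CTM values were close together and below the lowest 4T1 value, that of replicate 1. Tuba1b fell 1.93-fold, its mean going from 1008 ± 278 to 522 ± 11.6 CPM (SD, n = 3 each), with a log2 fold change of -0.95 ± 0.20 (SE, edgeR adjusted p = 0.0127). Without a CTM library the adjusted p rose just past the threshold, to 0.0502 without replicate 1, 0.0517 without replicate 2 and 0.0506 without replicate 3, with log2 fold changes of -0.92 to -0.97.

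Tuba1a, the isotype that predominates in developing neurons, had 269.5, 272 and 286 CPM in 4T1, against 155, 153 and 154 in CTM. Here 4T1 replicate 1 did not stand apart, and Tuba1a had the smallest p of the members at a modest size of change, 1.79-fold lower with a log2 fold change of -0.84 ± 0.08 (SE, edgeR adjusted p = 0.000824). Tuba1c had 276, 389 and 406 CPM in 4T1, against 172, 167 and 161 in CTM. It fell 2.14-fold, its mean going from 357 ± 70.5 to 167 ± 5.57 CPM (SD, n = 3 each; log2 fold change -1.10 ± 0.15 SE, edgeR adjusted p = 0.00289).

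Tuba4a behaved differently from its relatives in value, at 77.6, 93.4 and 91.5 CPM in 4T1, against 83.1, 66.4 and 68.5 in CTM. The groups overlapped, because CTM replicate 1 lay above 4T1 replicate 1. The log2 fold change was -0.27, with a 95% interval of -0.56 to 0.02 (edgeR adjusted p = 0.151), and the lower end of the interval is 0.68 times the 4T1 level. Without 4T1 replicate 1 it passed at -0.35 (edgeR adjusted p = 0.0412). It also passed at -0.46 without both libraries numbered 1 (edgeR adjusted p = 0.00015) and at -0.42 by limma voom (adjusted p = 0.000859). In the other 14 of 17 alternatives it did not pass. In 46.7% of its 100-base windows the Tuba4a transcript overlaps Stk16, a kinase gene on the other strand, and the sources used here do not state whether counting used strand. Stk16 was 1.65-fold lower in CTM (edgeR adjusted p = 0.00608), and its part in the Tuba4a value was not tested.

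Among the beta genes Tubb4b, a widely expressed isotype also used in cilia, had 258, 486 and 537 CPM in 4T1, against 155, 171 and 179 in CTM. The groups did not overlap, and again 4T1 replicate 1 was the lowest of its group. Tubb4b fell 2.54-fold, its mean going from 427 ± 149 to 168 ± 12.6 CPM (SD, n = 3 each; log2 fold change -1.34 ± 0.26 SE, edgeR adjusted p = 0.00919).

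Tubb2a and Tubb2b, a close pair of genes best known from neurons, were both at a low level. Tubb2a had 37.0, 40.1 and 40.3 CPM in 4T1, against 21.4, 15.4 and 15.1 in CTM, 2.26-fold lower (edgeR adjusted p = 0.00279). Tubb2b had 24.8, 15.0 and 16.4 CPM in 4T1, against 8.98, 6.68 and 6.98 in CTM, 2.48-fold lower (edgeR adjusted p = 0.00714). The falls of Tubb2b and Tubb4b were not separated: the log2 fold changes were -1.31 ± 0.23 and -1.34 ± 0.26 (SE), and without 4T1 replicate 3 they were -1.40 and -1.15. In Tubb2b the replicates numbered 1 were the highest of both groups, in contrast to Tubb4b, whose replicates numbered 1 were the lowest of both.

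Tubb6, a beta isotype of non-neuronal tissues, had 175, 299 and 322 CPM in 4T1, against 157, 146 and 146 in CTM. The lowest 4T1 value stood only slightly above the highest CTM value. It fell 1.77-fold (log2 fold change -0.82 ± 0.22 SE, edgeR adjusted p = 0.029), the least firm of the 7 calls. The call was lost in every fit that left out a library other than 4T1 replicate 1, at adjusted p from 0.0777 without CTM replicate 1 to 0.102 without CTM replicate 2, with 0.0921 and 0.0887 without 4T1 replicates 2 and 3 and 0.0979 without CTM replicate 3. It was also lost with a replicate block, at 0.0574, and without a filter on low counts, at 0.071.

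Tubb5 was the exception in size. It had 1363, 1955 and 2062 CPM in 4T1, against 2492, 2037 and 2023 in CTM. The groups overlapped, with 4T1 replicate 1 the lowest and CTM replicate 1 the highest of the 6 libraries. The log2 fold change was 0.28, with a 95% interval of -0.11 to 0.68 (edgeR adjusted p = 0.249), so that the data leave room for a level between 0.93 and 1.60 times that of 4T1. The interval does not reach the fall of any of the 7 called members. Without 4T1 replicate 1 the log2 fold change was 0.12, and without both libraries numbered 1 it was 0.01.

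Tubb3, the beta tubulin used as a marker of neurons, was near the limit of these libraries. It had 0.625, 0.609 and 0.706 CPM in 4T1, against 0.323, 0.384 and 0.276 in CTM, from deposited counts of 19 to 51 per library. The groups did not overlap, but the log2 fold change of -0.98 ± 0.38 (SE) did not pass (edgeR adjusted p = 0.0984). By limma voom Tubb3 passed at -0.96 (adjusted p = 0.0395), and in the other 15 of 16 alternatives it did not.

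**Figure D2:**
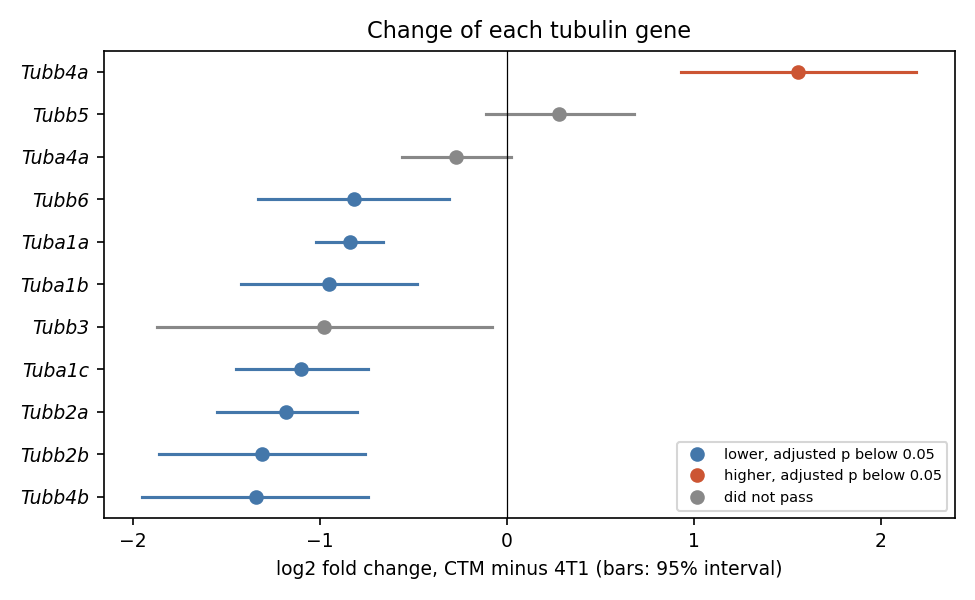
Log2 fold change of each tubulin gene, CTM minus 4T1, with its 95% interval from the edgeR fit over all genes, and with Tubb4a, which is not one of the 10 members, added for comparison. The 7 called members lie between -1.34 and -0.82, Tubb5 lies at 0.28 with an interval across 0, and Tubb4a lies at 1.56.

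When replicates 2 and 3 were averaged into 1 sample within each group, the count of members that fell dropped from 7 to 0, with edgeR adjusted p from 0.0542 for Tuba1a to 0.216 for Tubb6, and 1.2% of all genes were lower in that fit. Replicates 2 and 3 were closer to each other than to replicate 1. On counts divided by 4 the chi-square per gene for that pair was 3.32 in 4T1 and 4.52 in CTM, against 26.3 to 75.3 for pairs that include replicate 1.

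The size of several changes differed with the library number. Between the libraries numbered 1, the log2 difference was -0.43 for Tuba1b, -0.16 for Tubb6 and -0.74 for Tubb4b. Between the means of the libraries numbered 2 and 3 it was -1.15, -1.08 and -1.54 for the same genes. Tubb5 was 0.87 higher in CTM on the log2 scale between the libraries numbered 1, but differed by 0.02 between those numbered 2 and 3. Tuba1a was alike in both, at -0.80 and -0.86, and so was Tubb3, at -0.95 and -1.01. All 7 called members were lower in CTM in both comparisons, and they were called on these same libraries.

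**Figure D3:**
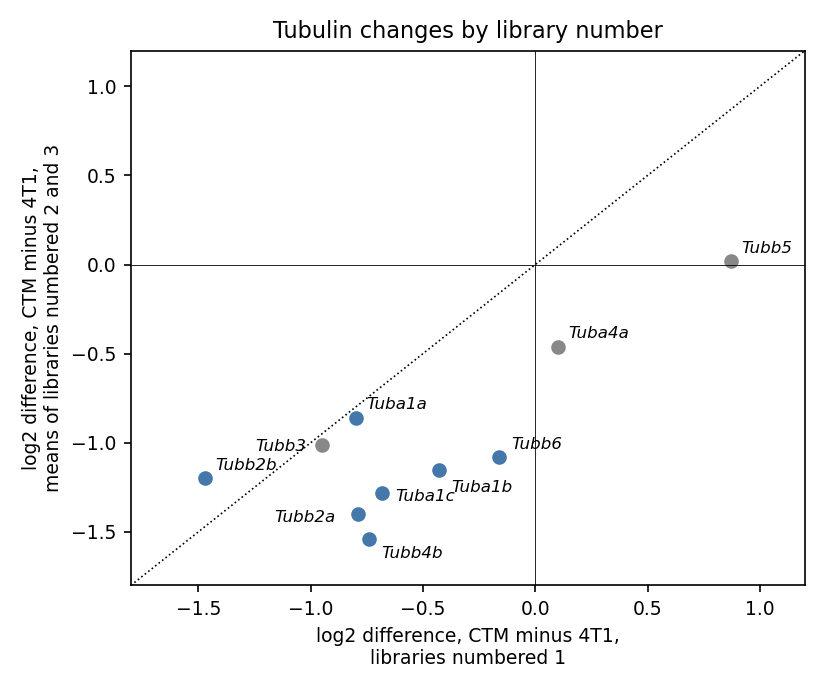
Log2 difference, CTM minus 4T1, of each member between the libraries numbered 1 (x axis) and between the means of the libraries numbered 2 and 3 (y axis), with called members in blue, others in grey and a dotted line where both are equal. Tuba1a and Tubb3 lie close to the line, and Tubb6 and Tubb5 lie farthest to the right of it, at -0.16 and 0.87 on the x axis.

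The members spanned a wide range of levels, which were compared per kilobase of a reference transcript. In 4T1 the order was led by Tubb5 at 677 ± 142 normalised CPM per kilobase and Tuba1b at 578 ± 159.6 (SD, n = 3), whose ranges over the libraries overlapped. Tubb4b followed at 267 ± 92.9, below every Tuba1b value. Its range overlapped that of Tuba1c, at 180.1 ± 35.6, which overlapped those of Tuba1a at 153 ± 4.92 and Tubb6 at 151 ± 44.9. Tuba4a at 30.8 ± 3.04, Tubb2a at 24.3 ± 1.16, Tubb2b at 8.59 ± 2.44 and Tubb3 at 0.346 ± 0.0278 each lay below all values of the gene before.

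In CTM the order kept Tubb5 first, at 824 ± 101 normalised CPM per kilobase, now with every value above those of Tuba1b at 299 ± 6.63 (SD, n = 3). Tubb4b was at 105 ± 7.9, above Tuba1a at 85.4 ± 0.368, Tubb6 at 85.2 ± 3.4 and Tuba1c at 84.1 ± 2.81, which overlapped each other. Tuba4a at 25.6 ± 3.2, Tubb2a at 10.8 ± 2.2, Tubb2b at 3.46 ± 0.573 and Tubb3 at 0.176 ± 0.0289 stood last, without overlap between neighbours. Lengths are those of GENCODE M21 transcripts of 1598 to 2840 bases, and the sources used here do not give the annotation behind the counts.

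Tubb5 made up more of the beta tubulin counts in every CTM library than in any 4T1 library. It held 73.3%, 69.9% and 69.2% of the summed beta counts in 4T1 and 87.9%, 85.7% and 85.3% in CTM. The groups did not overlap, and the mean share went from 70.8% ± 2.19 to 86.3% ± 1.42 (SD, n = 3 each). An exact two-sided permutation test gave p = 0.1, the smallest that 3 against 3 libraries allow. Tubb4b moved from 16.4% ± 2.23 to 6.74% ± 1.13 and Tubb6 from 10.3% ± 0.771 to 5.95% ± 0.368 of the beta counts (SD, n = 3 each, both at the same exact permutation p = 0.1). A share does not depend on how the libraries are scaled.

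Alpha shares differed by fewer points. Tuba1b held 57.7% ± 4.52 of the alpha counts in 4T1 and 57.0% ± 1.38 in CTM, and Tuba1a 16.5% ± 3.55 and 16.8% ± 0.16 (SD, n = 3 each, exact permutation p = 1.0 for both). Both differences were larger in size without 4T1 replicate 1 and changed sign without 4T1 replicate 2 or 3. From 4T1 to CTM the Tuba1b share differed by -0.68 percentage points with all libraries, by -3.29 without 4T1 replicate 1, by 0.60 and 0.64 without 4T1 replicates 2 and 3, and by 0.11 without CTM replicate 1. The Tuba1a share differed by 0.38 points with all libraries, by 2.43 without 4T1 replicate 1, and by -0.69 and -0.61 without 4T1 replicates 2 and 3. Tuba4a went from 5.16% ± 0.675 to 7.94% ± 0.963 and Tuba1c from 20.7% ± 0.312 to 18.2% ± 0.472, without overlap between groups (SD, n = 3 each, exact permutation p = 0.1 for both).

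**Figure D4:**
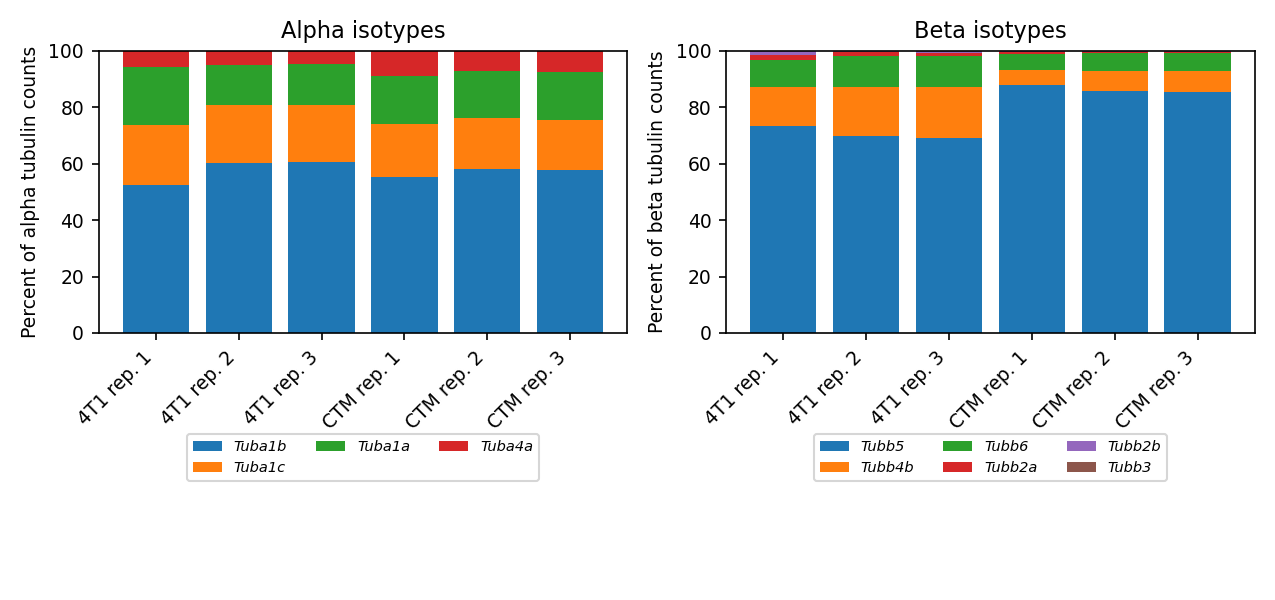
Share of each isotype in the summed alpha (left) and beta (right) tubulin counts of each library, in percent, stacked to 100. Tubb5 takes 69.2% to 73.3% of the beta counts in 4T1 and 85.3% to 87.9% in CTM, while the largest alpha share, that of Tuba1b, lies between 52.5% and 60.4% in all 6 libraries.

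Summed alpha RNA and summed beta RNA parted in value. The 4 alpha genes together were at 1312, 1899 and 1975 normalised CPM in 4T1, against 919.7, 919 and 905 in CTM, which is 0.529 times the 4T1 mean. The 6 beta genes were at 1859, 2796 and 2978 in 4T1, against 2835, 2377 and 2371 in CTM, or 0.993 times the 4T1 mean. That ratio averages opposite directions, since the beta sum was higher in CTM between the libraries numbered 1 and lower between those numbered 2 and 3. Without Tubb5 the other 5 beta genes were at 496, 841 and 916 in 4T1, against 342, 340.4 and 348 in CTM, or 0.457 times. The ratio of alpha to beta, taken per kilobase of transcript, was 0.877, 0.833 and 0.811 in 4T1 and 0.432, 0.512 and 0.504 in CTM, without overlap.

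Reads of near-identical tubulin genes may have been split between copies. Of the 100-base windows of the Tuba1b transcript 73.0% also occur in transcripts of other genes, as do 65.8% of those of Tuba1a and 53.4% of those of Tuba1c. The other genes were mainly each other and predicted genes such as Gm14150, which was 1.89-fold lower in CTM (edgeR adjusted p = 0.00808). For Tubb2a the share was 36.9% and for Tubb2b 27.7%, mostly shared between the pair. For Tubb4b it was 30.6%, mostly with the processed pseudogene Tubb4b-ps1, which had 8.5, 14.3 and 14.4 CPM in 4T1, against 3.87, 4.03 and 5.34 in CTM. The values of these 6 genes are therefore uncertain one by one, while Tuba1a, Tuba1b and Tuba1c each fell, as did Tubb2a and Tubb2b. With the counts of Tuba1a, Tuba1b and Tuba1c summed before the fit, the log2 fold change was -0.96 (edgeR adjusted p = 0.00525), and with Tubb2a and Tubb2b summed it was -1.22 (edgeR adjusted p = 0.00207). For Tubb3, Tubb5 and Tubb6 the share of 100-base windows found in another annotated gene was 0.0%.

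The promoters of Tubb4b, which fell, and of Tubb5, which did not pass the test, are shown for contrast, with that of Tubb4a, which rose. They are the 250 bases before the start of the gene in RefSeq on GRCm38.p6, read 5′ to 3′ along the gene, on the minus strand in each case. Tubb4b lies at chr2:25224703-25224952, Tubb5 at chr17:35838302-35838551 and Tubb4a at chr17:57087601-57087850. Capitals mark CCAAT (the CCAAT box), ACGTG (the core of the hypoxia response element) and TTTGAA (the cell cycle homology region) on either strand.
Tubb4b: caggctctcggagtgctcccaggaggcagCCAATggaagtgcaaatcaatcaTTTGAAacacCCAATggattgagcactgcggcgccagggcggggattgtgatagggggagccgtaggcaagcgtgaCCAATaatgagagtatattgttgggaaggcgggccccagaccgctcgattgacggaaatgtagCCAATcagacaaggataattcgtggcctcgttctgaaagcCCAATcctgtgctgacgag
Tubb5: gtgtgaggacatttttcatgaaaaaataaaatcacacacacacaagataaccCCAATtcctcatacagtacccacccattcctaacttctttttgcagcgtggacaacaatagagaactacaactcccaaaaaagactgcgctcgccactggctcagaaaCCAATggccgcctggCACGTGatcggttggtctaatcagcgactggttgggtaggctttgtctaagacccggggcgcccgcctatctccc
Tubb4a: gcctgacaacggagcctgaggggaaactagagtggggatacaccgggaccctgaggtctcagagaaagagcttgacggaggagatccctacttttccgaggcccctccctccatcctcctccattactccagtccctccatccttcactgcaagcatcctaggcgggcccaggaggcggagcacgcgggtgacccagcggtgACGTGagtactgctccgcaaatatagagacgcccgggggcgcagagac
The Tubb4b window held 5 CCAAT matches and 1 TTTGAA match. The Tubb5 window held 2 CCAAT matches and the palindrome CACGTG, which counts as an ACGTG match on both strands, and the Tubb4a window held 1 ACGTG match. Over 32851 RefSeq promoter windows of the same length, CCAAT or its reverse complement occurred in 33.8%, ACGTG in 16.6% and TTTGAA in 16.0%. Of the 10 members 8 had a window in this table, and among the other 6 of these Tuba1a, Tuba1c and Tubb3 held 1 CCAAT match each, and Tuba1b, Tuba4a and Tubb2a held none of the 3 motifs. A match is a string of letters, not a bound site.

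Of 10 other tubulin genes 5 were tested, of which Tubb4a rose and Tubg1 and Tubd1 fell. Among all genes tested 14.2% rose and 13.7% fell. Tubb4a, a beta isotype best known from neurons and myelinating cells, had 4.02, 2.08 and 2.71 CPM in 4T1, against 7.68, 9.15 and 9.2 in CTM. The groups did not overlap, and it rose 2.95-fold (log2 fold change 1.56 ± 0.27 SE, edgeR adjusted p = 0.00612). Per kilobase it stayed far below Tubb5, at 3.89 ± 0.388 against 824 ± 101 normalised CPM in CTM (SD, n = 3 each). Tubg1, the main gamma tubulin, which nucleates microtubules, had 81.3, 68.8 and 69.9 CPM in 4T1, against 34.3, 33.1 and 31.1 in CTM, 2.23-fold lower (edgeR adjusted p = 0.000865). Its close relative Tubg2 was at 10.9 ± 1.05 and 13.3 ± 1.26 CPM (SD, n = 3 each; edgeR adjusted p = 0.182), short of the threshold. Tubd1, the delta tubulin of centrioles, fell 2.66-fold (edgeR adjusted p = 0.0103).

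Tubb1, the beta tubulin of platelets and megakaryocytes, had a count of 0 in all 6 libraries, which allows up to 0.0434 CPM of a library total on counting error alone. The alpha genes Tuba3b and Tubal3 were at 0 in all libraries as well, and Tuba3a and Tuba8 had no more than 4 counts in any.

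Of 21 tested genes that fold tubulin 16 did not pass, and the 3 that rose and 2 that fell were 14.3% and 9.52% of them, against 14.2% and 13.7% of all genes. In the list of the 8 subunits of TRiC, the chaperonin that folds newly made actin and tubulin, Cct4 rose 1.27-fold and Cct3 fell 1.58-fold (edgeR adjusted p = 0.0188 and 0.00636), and 6 did not pass, among them Tcp1 at 585 ± 43.4 and 682 ± 22.8 CPM and Cct2 at 428 ± 4.39 and 382 ± 3.43 CPM in 4T1 and CTM (SD, n = 3 each). The list's median log2 fold change was -0.18. Of 6 subunits of prefoldin, which hands nascent chains to TRiC, Pfdn5 rose 1.73-fold, at 82.8 ± 7.53 CPM in 4T1 and 143 ± 8.02 in CTM (SD, n = 3 each; edgeR adjusted p = 0.00226), and 5 did not pass, among them Pfdn6, Pfdn2 and Pfdn1, whose groups overlapped. Of 7 tubulin cofactor genes, whose products assemble the heterodimer, Tbca rose 1.44-fold and Tbcd fell 1.93-fold (edgeR adjusted p = 0.0181 and 0.0115), and 5 did not pass, among them Tbcb, at 18.9 ± 0.873 and 15.8 ± 1.05 CPM in 4T1 and CTM (SD, n = 3 each), and Tbcel, no higher than 1.07 CPM in any library.

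Of the 3 genes of tubulin autoregulation, Ttc5 did not pass, at 46.7 ± 3.35 CPM in 4T1 and 48.3 ± 4.84 in CTM (SD, n = 3 each; 95% interval of the log2 fold change -0.22 to 0.31). Scaper was 1.66-fold higher, at 16.7, 28.4 and 29.1 CPM in 4T1, against 39.6, 44.1 and 39.6 in CTM (edgeR adjusted p = 0.0417). Cnot11 was 1.47-fold lower, at 37.7, 42.3 and 44.1 CPM in 4T1, against 31.8, 26.3 and 26.2 in CTM (edgeR adjusted p = 0.0158). The partners of Ttc5 thus moved in opposite directions, where 14.2% of all genes tested were higher and 13.7% lower.

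Most nucleation genes were lower, against 13.7% of all genes tested. Of 10 genes of the gamma tubulin ring complex, the template from which microtubules grow, 6 fell while 4 missed the threshold (list median -0.52 on the log2 scale). Beside Tubg1 they were Tubgcp6, 1.95-fold lower at 43.7 ± 4.88 CPM in 4T1 and 22.4 ± 1.86 in CTM (SD, n = 3 each; edgeR adjusted p = 0.00245), Tubgcp3 (1.53-fold lower), Tubgcp4 (1.42-fold lower), Tubgcp2 and Nedd1, the adaptor that brings the complex to spindle and centrosome.

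Genes whose products bind the lattice or the growing end showed little common change in RNA. Of 16 tested genes Map6 (1.28-fold) and Mapre2 rose, Mapre1 and Ckap5 fell, and 12 missed the threshold (list median -0.14 on the log2 scale). Over all genes tested, 14.2% rose and 13.7% fell. Mapre1, which encodes the end-binding protein EB1, fell 1.35-fold, while Mapre2, which encodes its relative EB2, rose 1.60-fold (edgeR adjusted p = 0.00782 and 0.00956). Ckap5, which encodes a microtubule polymerase, had 184, 267 and 269 CPM in 4T1, against 153, 130.0 and 128 in CTM, 1.75-fold lower (edgeR adjusted p = 0.0114).

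Of 10 tested genes that destabilise or sever microtubules 5 fell, 1 rose and 4 missed the threshold (list median -0.39 on the log2 scale). Over all genes tested, 13.7% fell and 14.2% rose. Stmn1, which encodes the tubulin-sequestering protein stathmin, had 109, 169 and 167 CPM in 4T1, against 44.1, 57.6 and 63.7 in CTM, 2.69-fold lower (edgeR adjusted p = 0.00363). Kif2c and Kif18a, kinesins that depolymerise microtubules in mitosis, fell 2.66-fold and 2.31-fold (edgeR adjusted p = 0.00117 and 0.00343). Fignl1, a relative of the severing enzyme fidgetin, fell 3.76-fold (edgeR adjusted p = 0.00141), while Katnal1, which encodes a relative of the severing enzyme katanin, rose 1.37-fold (edgeR adjusted p = 0.0363).

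Of 20 tested genes of tubulin modification 4 rose, 5 fell and 11 missed the threshold (list median -0.05 on the log2 scale). Over all genes tested, 14.2% rose and 13.7% fell. Sirt2, a deacetylase of alpha tubulin, had 83.0, 62.3 and 60.0 CPM in 4T1, against 166, 128 and 122 in CTM, 2.03-fold higher (edgeR adjusted p = 0.00584). Ttl, the ligase that restores the terminal tyrosine of alpha tubulin, was 1.40-fold higher, while Vash2, a peptidase that removes it, was 1.55-fold lower (edgeR adjusted p = 0.0394 and 0.00749). The glutamylase gene Ttll4 was 1.69-fold lower and Ttll12 1.34-fold lower, and the acetyltransferase gene Atat1 did not pass, at 16.6 ± 0.465 and 13.1 ± 2.78 CPM in 4T1 and CTM (SD, n = 3 each).

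Over all 83 tested genes of these lists beside the members, 12 rose and 22 fell, and the median log2 fold change was -0.08. The 12 are 14.5% of the genes tested, near the 14.2% of all genes, and the 22 are 26.5%, against 13.7% of all genes. The count of those that rose was 4 to 17 and of those that fell 13 to 28 with 1 library left out, the lowest of both without CTM replicate 2 and the highest of both without 4T1 replicate 1. In those fits 7.85% to 19.7% of all genes rose and 7.11% to 19.7% fell. Without 4T1 replicate 2 and without 4T1 replicate 3 the counts of those that rose were 4 and 5, without CTM replicate 1 it was 7, and without CTM replicate 3 the counts were 5 higher and 14 lower. Without both libraries numbered 1 the counts were 21 and 31, where 25.6% of all genes rose and 26.2% fell. With replicates 2 and 3 averaged they were 0 and 3, where 1.66% of all genes rose and 1.2% fell.

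**Figure D5:**
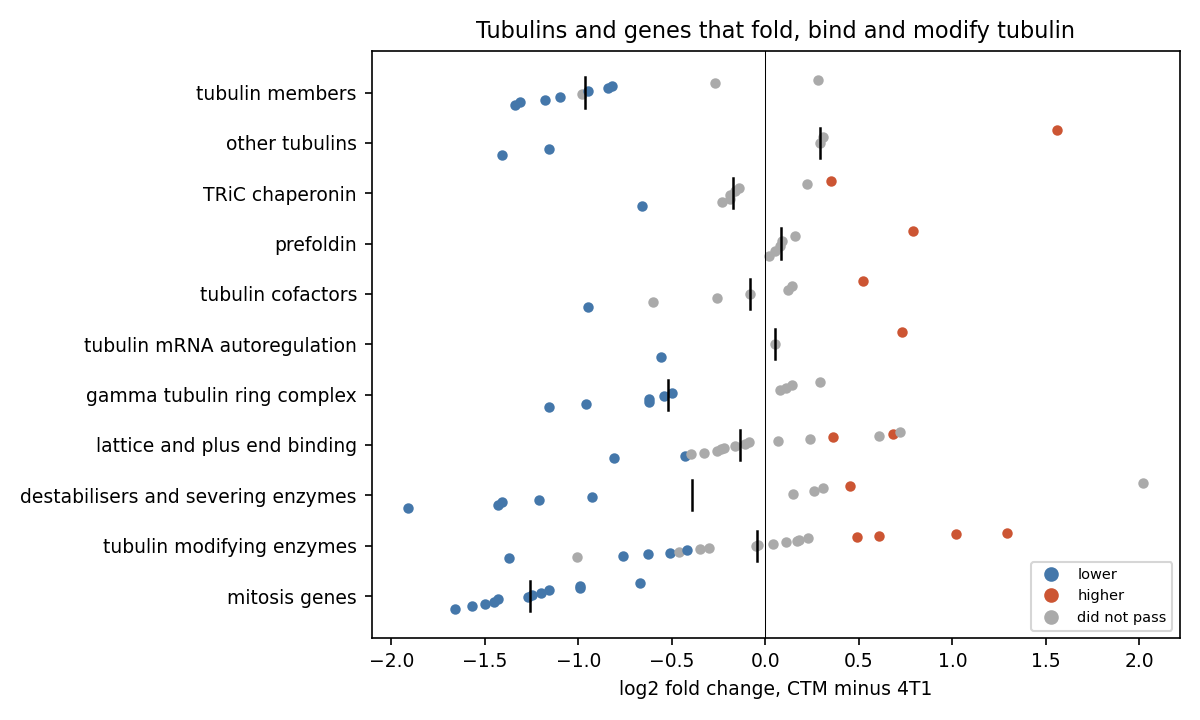
Log2 fold change, CTM minus 4T1, of each tested gene of the tubulin, folding, nucleation, binding, modification and mitosis lists, with called genes in colour and a vertical bar at the median of each list. The tubulin members have a median of -0.96 and the mitosis genes of -1.26, while the medians of the folding lists lie between -0.18 and 0.09.

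Tubb4b had the lowest fitted log2 fold change of the members, closely followed by Tubb2b, and was used as the pattern to match. The genes most like it over the 6 libraries were found by the root mean square difference of centred log2 CPM among 9518 other genes with a mean of at least 10 CPM. They were Spc24 (0.066), a kinetochore gene, Cenpt (0.084), a centromere gene, Kif15 (0.084), a spindle kinesin gene, Bora (0.087), an activator of mitotic kinases, and Rbl1 (0.089), a relative of the retinoblastoma gene. Spc24, for example, had 37.0, 78.9 and 79.7 CPM in 4T1, against 23.4, 23.8 and 26.8 in CTM. As in Tubb4b, the first 4T1 library lay between the other 4T1 libraries and the CTM libraries. That likeness follows from choosing Spc24 by its match to Tubb4b over these same libraries. The share of mitosis genes among the 9518 genes compared is not given here.

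All 12 genes of a mitosis list fell, against 13.7% of all genes tested. The list median was -1.26 on the log2 scale, against -0.02 over all genes tested. Ccnb2 fell 2.84-fold and Bub1b 2.97-fold. Their summed level was 2753 to 3989 CPM in 4T1 and 1494 to 1800.1 in CTM. The proliferation marker Mki67 had 533, 706 and 743 CPM in 4T1, against 301, 261 and 271 in CTM, and the mitotic kinase gene Plk1 had 102, 139 and 147 in 4T1, against 47.5, 39.7 and 35.0 in CTM. The part of this list in the tubulin result was not tested.

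Of 7 epithelial markers 6 were tested, of which Krt19 rose and Krt7, Krt8 and Cdh1 fell. For this and the marker lists below, the shares over all genes tested were 14.2% higher and 13.7% lower. Krt8 and Krt18 were the most abundant, with Krt8 at 733 to 778 CPM in 4T1 and 533 to 571 in CTM (edgeR adjusted p = 0.00548) and Krt18 at 839 to 949.8 and 959.9 to 1091 (not passing), while Epcam and Krt14 stayed below 1 CPM. Krt7 was 3.17-fold lower, Cdh1, which encodes E-cadherin, 3.99-fold lower and Krt19 2.86-fold higher in CTM (edgeR adjusted p = 0.00106, 0.0317 and 0.00906). The size of the Cdh1 fall rests on 4T1 replicate 1, with 113, 27.8 and 31.0 CPM in 4T1, against 14.8, 13.1 and 15.2 in CTM. Its log2 difference was -2.93 between the libraries numbered 1 and -1.06 between the means of those numbered 2 and 3. The 7 epithelial markers summed to 1855 to 2210.0 CPM in 4T1 and 1663 to 1773 in CTM. Of 12 neuron markers 6 were at 0 in all libraries, among them Snap25, Stmn2 and Dcx, and their summed level was 1.98 to 2.56 CPM in 4T1 and 3.68 to 6.81 in CTM, nearly all of it Syn1, which rose 2.57-fold (edgeR adjusted p = 0.0084). Of 11 platelet markers 4 were tested, of which Itga2b and Gp1ba rose and Pf4 and Ppbp did not pass. The Gp1ba value rests on deposited counts of 4 to 48 per library. Gp6 and Tubb1 were at 0 throughout, and the platelet sum was 3.49 to 5.38 CPM in 4T1 and 8.22 to 11.5 in CTM. The 6 leukocyte markers summed to 5.84 to 19.9 CPM in 4T1 and 9.05 to 16.9 in CTM, and the 5 tested did not pass. Most of each sum was Cd74, at 17.4, 3.92 and 4.25 CPM in 4T1, against 6.59, 9.96 and 10.2 in CTM. Ptprc had 0.0, 0.221 and 0.277 CPM in 4T1, against 0.161, 1.08 and 1.34 in CTM. Ptprc, Cd53 and the untested Laptm5 were highest in CTM replicates 2 and 3. The log2 fold changes were 2.36 ± 1.18 for Ptprc and 2.07 ± 1.15 for Cd53 (SE). They were 0.59 ± 0.32 for Coro1a, 0.24 ± 0.61 for Lyz2 and 0.07 ± 0.58 for Cd74 (SE). The 7 fibroblast and endothelial markers summed to 33.9 to 55.7 CPM in 4T1 and 19.8 to 22.1 in CTM, where Cdh5, Pdgfrb and Col1a1 fell 2.47-fold, 2.10-fold and 1.84-fold and Dcn did not pass. The part of these markers in the tubulin result was not tested.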

How the data were processed

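RNA of 3 CTM and 3 4T1 samples was turned into libraries with a SMART-Seq kit for very small amounts of RNA, per the labels' protocols. The deposited table holds the authors' estimated counts per Ensembl gene, whole numbers that sum to 69178212 to 71595766 per library. Of tools, HISAT2 2.0.4, edgeR and Bowtie 0.12.2 are listed per the submitters' processing notes, as is the build mm8, without their roles. The sources used here do not give the counting tool or annotation. Low counts pile up at multiples of 4, with 956 genes at 4 in 4T1 replicate 1 against 391 at 3 and 320 at 5, so counting error may be larger than the totals imply. The 95% intervals of fold changes come from the fit and cover the spread among libraries. The floor for a count of 0 is 3 counts and covers counting error only.

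Symbols were found for 52073 of 56691 identifiers. Genes were filtered with filterByExpr, scaled by TMM (factors 0.952 to 1.04) and tested over all genes in R 4.3.3 with edgeR 4.0.16 (quasi-likelihood F test, no block); p-values were adjusted by Benjamini-Hochberg and called under 0.05. The SE is the log2 fold change divided by the square root of F. The deposited values are whole, so no rounding was needed, and the planned test for plain counts was kept. The test was tested on simulated data. Transcripts were those of GENCODE M21 with a consensus coding sequence, and windows were compared on both strands. Coordinates are those of RefSeq promoters on GRCm38.p6, not of the build named by the submitters.

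The members, lists and alternatives were chosen with earlier results of these data known. The text names all members, the genes of smallest p in each list (up to 4), the 5 genes most like the called member that fell most; no member rose. Others were named after their values were seen, where a count or a role called for it. The alternatives were DESeq2 1.42.0, its size factors, limma 3.58.1 voom with quality weights, library totals, no filter or 5 CPM in 3 libraries, counts divided by 4, a replicate block, each library left out, both libraries numbered 1 left out, libraries numbered 2 and 3 averaged, and paralogs summed.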

Additional observations from a re-analysis of the deposited data

How the results depend on the processing

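The count of tubulin genes that fell was 7, and 5 to 8 with 1 library left out, 6 with a replicate block and 9 by limma voom, and it dropped to 0 with libraries numbered 2 and 3 averaged. Of all genes 13.7% fell, and under the same alternatives 7.11% to 19.7%, 12.6%, 27.4% and 1.2%. None of the 10 changed direction in any alternative. Among the 83 other microtubule genes tested, 12 rose and 22 fell, or 14.5% and 26.5%, against 14.2% and 13.7% of all genes. The rise count was 21 without both libraries numbered 1, 20 by limma voom, 6 with library totals alone and 0 with libraries numbered 2 and 3 averaged, where 3 fell. Under the same alternatives 25.6%, 26.8%, 11.6% and 1.66% of all genes rose. With 1 library left out the rise count was 4 to 17 and the count that fell 13 to 28. In those fits 7.85% to 19.7% of all genes rose and 7.11% to 19.7% fell. The cause was not tested. Averaging and leaving out libraries also give fewer samples, and leaving out libraries both raised and lowered the counts. The labels state no pairing of libraries by replicate number. Same-numbered deviations from the group means correlated at 0.0635, 0.0161 and 0.0121, and those of unlike numbers at -0.0577 to 0.0578. With 3 libraries a group, these values cannot decide whether same-numbered libraries were paired. The block ended the Tubb6 call and no other among the members. Library totals alone moved the median of all genes by -0.083 on the log2 scale.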
